A study of Homo sapiens with 4 samples.

Results

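Occludin siRNA was compared with wild-type occludin in BEAS-2B cells, an immortalised human bronchial epithelial line, after a short exposure to bacterial lipopolysaccharide (LPS). The series holds 4 RNA-seq libraries, and 2 of them form this comparison. The siOCLN+LPS library came from cells transfected for 24 h with siRNA against occludin, and the library labelled wtOCLN+LPS from cells transfected for 24 h with wild-type occludin. Both were then given LPS for 2 h. The other 2 libraries were an untreated control and LPS alone, and their labels name no transfection. No library with a control siRNA or an empty vector is among the 4, so siRNA and wild-type occludin are compared with each other and not with a transfection control. The labels give the genotype of all 4 as wild type. Each condition is 1 library, so no test between conditions was possible, and every difference below is between 2 libraries.

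Genes entered the comparison when they reached 1 CPM (counts per 1000000 counts in that library) in either transfected library. This rule kept 13109 of 24424 genes. Library totals lay between 13867494 and 17500031 counts over the 4 libraries, and the transfected pair, with 17476333 and 17500031, differed little in depth. A single count was worth 0.0572 CPM in siOCLN+LPS and 0.0571 CPM in the wtOCLN-labelled library. At the rule's edge, 152 genes peaked between 1 and 1.1 CPM and 160 between 0.9 and 1 CPM. The summed level of 15 bronchial epithelial markers was 4282 CPM in siOCLN+LPS and 4467 CPM in the wtOCLN-labelled library, and 13 of the 15 were tested. Leukocyte markers summed to 5.26 and 8.23 CPM, with 1 of 10 tested and PTPRC, CD3E, CD3D and TYROBP at 0 in both. Endothelial markers summed to 1.77 and 1.94 CPM with none of 8 tested and ERG at 0 in both. Fibroblast markers summed to 171 and 179 CPM, with 3 of 10 tested and DPT at 0 in both. The 3 tested were THY1 (64.5 and 67.8 CPM), COL1A1 (56.1 and 55.2 CPM) and PDGFRB (49.4 and 55.4 CPM). The ciliated cell regulator FOXJ1 was also at 0 in both libraries. Alveolar epithelial markers summed to 736 and 724 CPM, with 5 of 11 tested and SFTPA1 and HOPX at 0 in both. A single member, at up to 679 CPM, made up most of these sums. ABCA3 was at 47.7 and 40.2 CPM, and AGER, AQP5 and PDPN were each under 5 CPM in both.

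OCLN, which encodes the tight-junction membrane protein occludin, was the targeted gene. It was counted at 55.4 CPM in control, 50.4 with LPS alone, 21.0 in siOCLN+LPS and 29.7 in the wtOCLN-labelled library. The siRNA library had the lowest level of the 4, at 0.708 times the wtOCLN-labelled library (95% counting interval 0.618 to 0.811). The wtOCLN-labelled library stood at 0.588 times the LPS library, so OCLN was not above the level of cells with no named transfection in a library labelled for wild-type occludin. For this reason it is called the library labelled wtOCLN throughout, and each direction below is relative to that library as labelled. Whether transcripts of the transfected wild-type occludin were counted under OCLN is not known. Its expression therefore cannot be read from the OCLN level. Counting intervals here are exact binomial (Clopper-Pearson) for a ratio of counts and exact Poisson for a level. They cover counting error only and not the variation between cultures.

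Type I and type III interferons are secreted proteins that bind receptors on the producing cell and its neighbours. The receptor kinases JAK1 and TYK2 then activate a complex that holds STAT2 and IRF9 and binds a DNA element called the interferon-stimulated response element (ISRE). The induced genes encode sensors of viral RNA, enzymes and membrane proteins that block viral replication, and the ubiquitin-like protein ISG15 with its conjugation enzymes. Airway epithelium is a main site of this response.

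The genes lowest in siOCLN+LPS relative to the wtOCLN-labelled library were mostly members of this response, and many of them carried the ISRE letters just before their start. The windows below were chosen because they show the element in genes 2-fold lower in the siRNA library. They come from RefSeq promoters (GRCh38.p14, 250 bases before to 50 after each start), are printed in the direction of transcription, and have in capitals each match to the ISRE letters, GAAA, any 2 bases and GAAA again, or their reverse complement. IFIT1 lies on the plus strand at chr10:89392482-89392554, ISG15 on the plus strand at chr1:1013359-1013424, IFI27 on the plus strand at chr14:94110603-94110675, and IFI6 on the minus strand at chr1:27672251-27672373. DDX60 lies on the minus strand at chr4:168318771-168318865, RSAD2 on the plus strand at chr2:6877607-6877666, MX1 on the plus strand at chr21:41431829-41431888, and IFITM1 on the plus strand at chr11:313975-314034.
IFIT1: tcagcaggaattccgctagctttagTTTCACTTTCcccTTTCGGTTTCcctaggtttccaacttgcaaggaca
ISG15: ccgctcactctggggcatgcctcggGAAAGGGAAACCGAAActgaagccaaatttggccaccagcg
IFI27: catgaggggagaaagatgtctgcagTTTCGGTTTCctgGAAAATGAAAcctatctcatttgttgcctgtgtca
IFI6: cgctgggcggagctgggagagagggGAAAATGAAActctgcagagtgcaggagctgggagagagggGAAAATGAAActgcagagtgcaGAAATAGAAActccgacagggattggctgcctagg
DDX60: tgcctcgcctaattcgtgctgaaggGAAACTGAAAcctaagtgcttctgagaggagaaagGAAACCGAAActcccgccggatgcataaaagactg
RSAD2: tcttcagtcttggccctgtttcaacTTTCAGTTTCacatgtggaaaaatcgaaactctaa
MX1: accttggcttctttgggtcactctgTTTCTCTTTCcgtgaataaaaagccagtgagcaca
IFITM1: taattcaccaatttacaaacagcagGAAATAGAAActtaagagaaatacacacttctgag
IFI6 held 3 matches, ISG15 had 2 that overlap, and RSAD2, MX1 and IFITM1 had 1 each in the window shown.

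Of the 23 interferon-list genes at least 2-fold lower in siOCLN+LPS, 18 had a RefSeq promoter in the table used, and 14 of these (77.78%) held these letters on either strand. The share was 61.9% (13 of 21) for interferon-list genes between 1.5-fold and 2-fold lower and 33.33% (14 of 42) for those within 1.5-fold. It was 3.949% (416 of 10534) over all tested genes with a promoter and 3.574% over all 35116 promoters in the table. Among genes outside the interferon lists, the letters were in 1 of 9 promoters of those 2-fold lower (11.11%, LGALS9). They were in 0 of 56 for those between 1.5-fold and 2-fold lower, and among genes 2-fold higher in 0 of 9. A second element of interferon signalling, TTCNNNGAA, searched on both strands, was found in 5 of the same 18 promoters (27.78%), against 8.639% of all tested genes. For this element the share was similar in interferon-list genes between 1.5-fold and 2-fold lower, at 28.57% (6 of 21). It was 23.81% (10 of 42) for those within 1.5-fold. Outside the interferon lists this element was in 1 of 9 promoters of genes 2-fold lower. It too was in 0 of 56 for genes between 1.5-fold and 2-fold lower. The 2 searches can overlap in sequence, and a match describes letters in a window, not binding.

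Across the 13109 genes the 2 transfected libraries were close, with a Pearson correlation of 0.995 across genes on the log2(CPM + 1) scale. Differences are given on that scale as siOCLN+LPS minus the wtOCLN-labelled library, and a gene is called when the difference passes 2-fold. By this rule 48 genes (0.366% of those tested) were apart, 38 (0.29%) lower in siOCLN+LPS and 10 (0.0763%) higher. Of the 38 lower genes, 23 belonged to the interferon lists, and of the 10 higher genes none did. At 1.5-fold 255 genes (1.95%) were apart, 156 lower (1.19%) and 99 higher (0.755%), with 50 and 1 from the interferon lists. The median over all tested genes was 0.02. Among the 13000 genes outside the interferon lists the middle 95% lay between -0.40 and 0.42. Above 100 CPM the range narrowed to -0.24 to 0.19 over 2443 genes, and none of these was called in either direction.

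**Figure D1:**
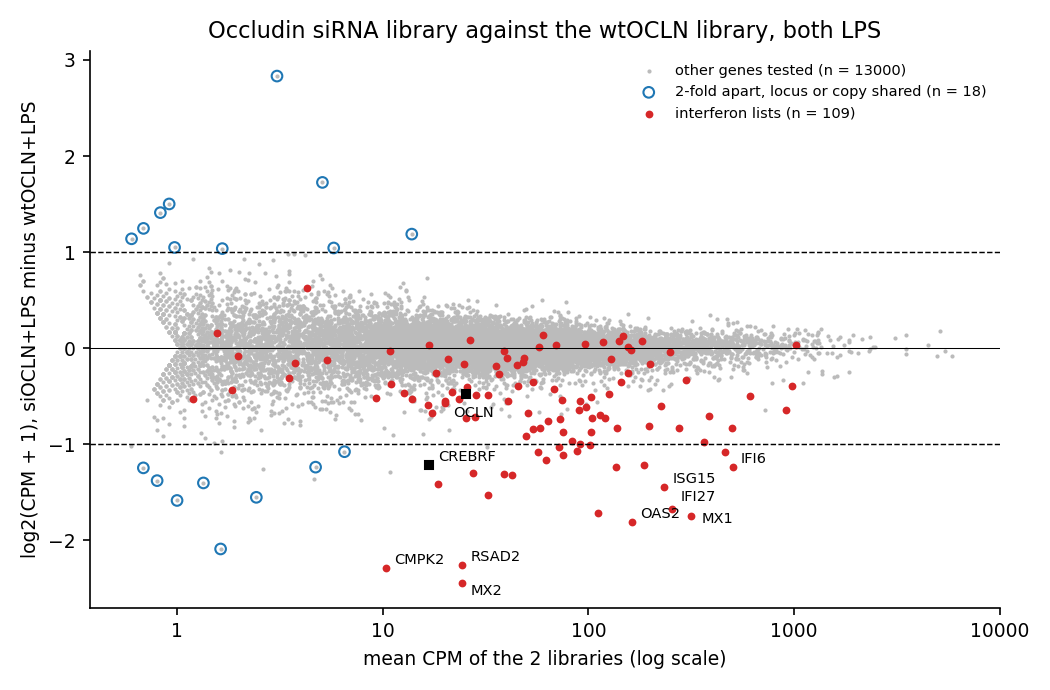
Difference between the transfected libraries (vertical axis, log2(CPM + 1), siOCLN+LPS minus the library labelled wtOCLN+LPS) against the mean CPM of both (horizontal axis, log scale) for the 13109 tested genes, with dashed lines at 2-fold. Red points are the 109 tested interferon-list genes, 23 of which lie past the lower line, blue rings are the 18 called symbols that share a locus or copy with another symbol, and black squares mark OCLN and CREBRF.

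The interferon lists held 119 genes in 8 groups by role, and 109 were tested. Their median difference was -0.54, beside 0.02 for all tested genes. Of the 109, 95 lay below 0 and 14 above, against 45.5% of all tested genes below 0. All 23 of the 2-fold lower genes were also above the LPS library in both transfected libraries, with the LPS library shared by those readings and transfection differing along with occludin. The order LPS, then siOCLN+LPS, then the wtOCLN-labelled library held for 76 of the 109, and for 1837 of all 13109 tested genes. The siRNA library thus lay between the LPS library and the wtOCLN-labelled library for most of the list. What transfection itself contributed cannot be told apart from occludin here. In RNA from whole cultures, a lower level in every cell and fewer cells with a high level cannot be told apart either.

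Antiviral effectors held the widest differences. MX2, a dynamin-like GTPase that restricts virus entry into the nucleus, was at 0.629 CPM in control, 0.577 with LPS alone, 6.87 in siOCLN+LPS and 41.7 in the wtOCLN-labelled library. The wtOCLN-labelled level was 6.07 times that of siOCLN+LPS (95% counting interval 5.00 to 7.42). Its neighbour MX1, a cytoplasmic GTPase of the same family, was at 18.2, 16.7, 144 and 488 CPM in the same order, a ratio of 3.38 (3.23 to 3.54). Both genes were low without a named transfection and intermediate with the siRNA. RSAD2, which encodes viperin, an enzyme that makes a chain-terminating nucleotide, was at 0.818, 0.505, 7.72 and 40.7 CPM, a ratio of 5.27 (4.38 to 6.39). CMPK2, a nucleotide kinase encoded beside RSAD2, was at 0.818, 0.288, 2.86 and 17.8 CPM, a ratio of 6.23 (4.61 to 8.58). Over the 29 tested effectors the median difference was -0.50, with 6 genes 2-fold lower and 12 at 1.5-fold.

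The OAS enzymes make 2',5'-linked oligoadenylates that activate the nuclease RNase L when they bind double-stranded RNA. OAS2 was at 8.06 CPM in control, 7.50 with LPS alone, 71.8 in siOCLN+LPS and 254 in the wtOCLN-labelled library, a ratio of 3.54 (3.32 to 3.77) between the last 2. OASL, a relative without that enzyme activity, was at 4.09, 3.68, 9.73 and 27.5 CPM, a ratio of 2.83 (2.37 to 3.39). OAS1 and OAS3 were lower in siOCLN+LPS by less than 2-fold, with ratios of 1.80 and 1.79. The 5 tested members had a median of -0.83, with 2 at 2-fold and 4 at 1.5-fold.

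The IFIT proteins bind viral RNA ends, and the IFITM proteins sit in membranes and hinder fusion. IFIT1 was at 9.31 CPM in control, 8.44 with LPS alone, 47.1 in siOCLN+LPS and 103 in the wtOCLN-labelled library, a ratio of 2.18. IFITM1 was at 82.6, 79.6, 295 and 624 CPM, a ratio of 2.12. The related genes differed less, with ratios of 1.84 for IFIT3, 1.67 for IFIT2, 1.56 for IFITM3, 1.46 for IFIT5 and 1.26 for IFITM2. All 7 members were lower in the siRNA library, with a median of -0.72.

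ISG15 is a ubiquitin-like protein that HERC5, its main ligase, attaches to other proteins, and that USP18 removes. The level of ISG15 was 17.6 CPM in control, 15.3 with LPS alone, 125 in siOCLN+LPS and 343 in the wtOCLN-labelled library, a ratio of 2.74 (2.60 to 2.87). HERC5 stood at 13.8, 10.7, 16.2 and 48.6 CPM, a ratio of 3.0 (2.62 to 3.44). USP18, which also damps the interferon receptor, was at 10.4, 9.16, 15.4 and 39.4 CPM, a ratio of 2.55. For HERC5 and USP18 the siRNA library lay within 2-fold of the 2 libraries with no named transfection, whereas ISG15 was far above them. The activating enzyme UBA7 and the conjugating enzyme UBE2L6 had smaller ratios of 1.28 and 1.54. The 6 tested members had the lowest median of the 8 groups, -1.30, with 4 at 2-fold.

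Among other induced genes, IFI27, a mitochondrial protein gene, was at 4.97 CPM in control, 3.17 with LPS alone, 121 in siOCLN+LPS and 389 in the wtOCLN-labelled library, a ratio of 3.22 (3.06 to 3.38). IFI6, a related gene, was the most counted of the 2-fold lower genes, at 27.3, 27.5, 299 and 705 CPM, a ratio of 2.36 (2.28 to 2.44). XAF1, a pro-apoptotic antagonist of XIAP, was at 11.9, 7.64, 51.4 and 171 CPM, a ratio of 3.34. All 3 had more counts in siOCLN+LPS than in LPS, and more again in the wtOCLN-labelled library. In the same group DDX60 (2.37), IFI44L (2.33), DDX60L (2.15), PARP9 (2.12) and IFI44 (2.06) were also 2-fold lower. So were SAMD9L (2.56) and PLSCR1 (2.02) of the antiviral effectors and HERC6 (2.55) of the ISG15 group. EPSTI1 of this group and TRIM22, an antiviral effector, sat just inside 2-fold on the log2(CPM + 1) scale, at -1.0 and -0.97. The group of 30 other induced genes had a median of -0.70, with 8 genes at 2-fold and 17 at 1.5-fold.

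**Figure D2:**
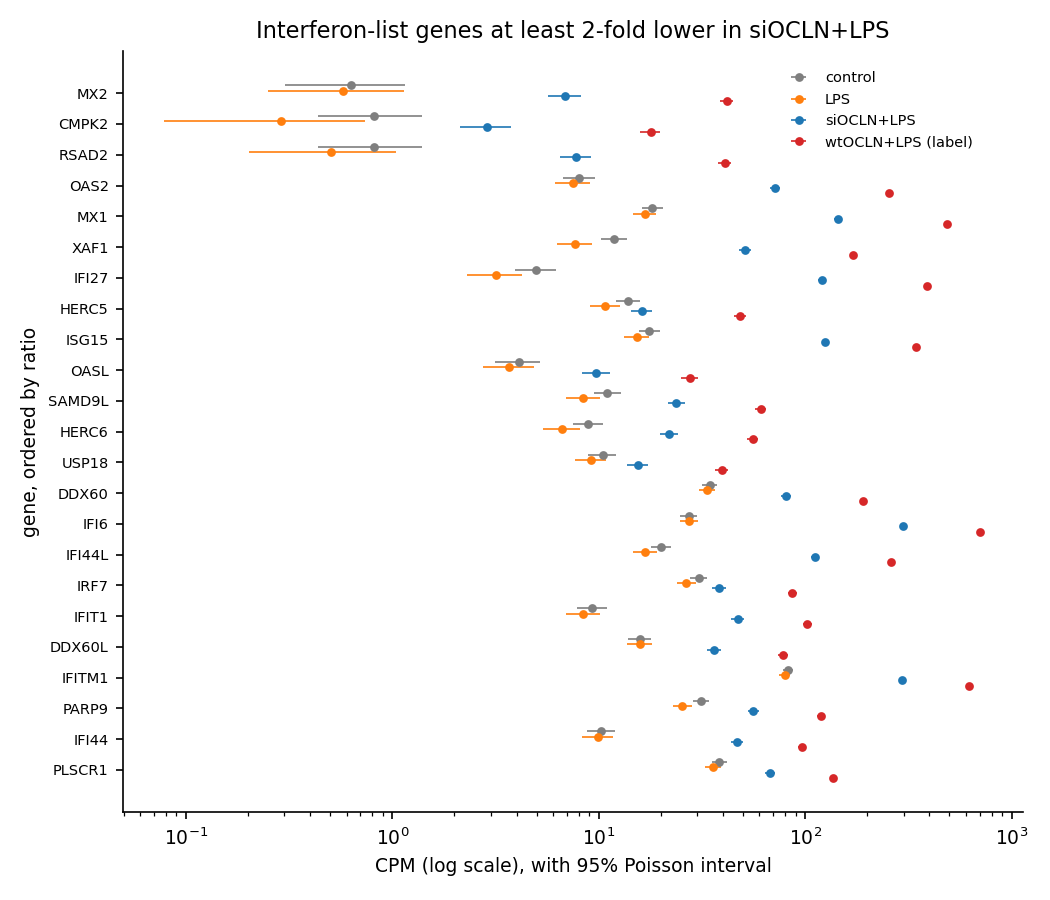
Level of the 23 interferon-list genes that were at least 2-fold lower in siOCLN+LPS (horizontal axis, CPM on a log scale; 1 point per library with its 95% Poisson counting interval; 1 gene per row, ordered by ratio). In each row the library labelled wtOCLN+LPS is highest, siOCLN+LPS lies below it, and control and LPS are lower still, from 0.288 CPM for CMPK2 in LPS to 705 CPM for IFI6.

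Sensors of viral RNA differed less. IFIH1 (MDA5) was at 52.7 CPM in siOCLN+LPS and 97.1 in the wtOCLN-labelled library, a ratio of 1.84, and DDX58 (RIG-I) at 54.0 and 90.9, a ratio of 1.68. EIF2AK2, the kinase PKR, had a ratio of 1.67, and TLR3, the endosomal receptor for double-stranded RNA, 1.48. None of the 12 tested sensors and adaptors passed 2-fold, 4 passed 1.5-fold, and their median was -0.40.

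The signalling group split by role. IRF7, the transcription factor that amplifies interferon production, was at 30.5 CPM in control, 26.6 with LPS alone, 38.2 in siOCLN+LPS and 86.7 in the wtOCLN-labelled library, a ratio of 2.27 (2.07 to 2.49). IRF9 had a ratio of 1.70 (1.56 to 1.86) and STAT2 one of 1.42 (1.33 to 1.52). These 3 factors, which are known to be interferon-induced themselves, held low values of the group. Receptor chains and kinases were near equal in both libraries: IFNAR1 at 97.6 and 94.9 CPM, IFNAR2 at 57.4 and 57.0, JAK1 at 156 and 154 and TYK2 at 144 and 137 in siOCLN+LPS and the wtOCLN-labelled library. IRF1, which LPS also raises through NF-kB, was at 1036 and 1009 CPM. The median of the 19 was -0.03, with 9 above 0 and 10 below.

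Of 8 interferon ligand genes, 1 was tested. IFNE, an epithelial type I interferon, was at 7.99 CPM in control, 7.57 with LPS alone, 5.38 in siOCLN+LPS and 3.14 in the wtOCLN-labelled library, and was thus 1.71 times higher in siOCLN+LPS (1.21 to 2.43), opposite to the induced genes. IFNL1, a type III interferon, had 7 counts in the wtOCLN-labelled library and 0 in the other 3 libraries. IFNB1, the first type I interferon made by most epithelial cells, had 1 count in the wtOCLN-labelled library and 0 in siOCLN+LPS. For IFNL1 the 95% counting interval of the ratio between these libraries had a lower limit of 1.44, with both levels under 1 CPM. For IFNB1, at 1 count against 0, no order can be read. CXCL10, an interferon-induced chemokine, was at 0.189, 0.433, 7.44 and 11.1 CPM, a ratio of 1.49 (1.19 to 1.88), while CXCL11 had 30 and 25 counts in siOCLN+LPS and the wtOCLN-labelled library.

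MHC class I genes, which present peptides to T cells and are also raised by interferon, differed by a small amount in 1 direction. All 19 tested members were below 0, between -0.33 and -0.05, with a median of -0.19, and none reached 1.5-fold. HLA-E was at 237 CPM in control, 248 with LPS alone, 175 in siOCLN+LPS and 220 in the wtOCLN-labelled library. HLA-B was at 1293, 1239, 1453 and 1770 CPM in the same order of libraries, and B2M, the shared light chain, at 1201, 1240, 1690 and 2010. In 15 of the 19 both transfected libraries were above control and LPS, and in HLA-E alone were both below.

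Outside the interferon lists, 15 genes were 2-fold lower in siOCLN+LPS. LGALS9, which encodes the lectin galectin-9, was at 0.755 CPM in control, 0.649 with LPS alone, 2.17 in siOCLN+LPS and 7.14 in the wtOCLN-labelled library, and its promoter held the ISRE letters. SLC15A3, a lysosomal peptide and histidine transporter, was at 1.64, 3.03, 5.89 and 15.9 CPM, a ratio of 2.70 (2.14 to 3.41). TYMP, thymidine phosphorylase, was at 9.06, 12.1, 20.7 and 43.4 CPM, a ratio of 2.09 (1.85 to 2.38). These 3 had the same order of libraries as the interferon-list genes. CREBRF, a regulator of CREB3 in the unfolded protein response, had another order, at 38 CPM in control, 39.8 with LPS alone, 9.73 in siOCLN+LPS and 24.0 in the wtOCLN-labelled library. Its ratio was 2.47 (2.06 to 2.97), with both transfected libraries below both others. HSH2D, an adaptor, had 20 and 72 counts, and SOX5, a transcription factor, 1 and 20 counts, in siOCLN+LPS and the wtOCLN-labelled library. FBXO39, an F-box gene next to XAF1, had 12 and 45 counts.

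Several lower genes neighbour each other. Among the 36 lower protein-coding genes matched to the RefSeq annotation, 12 formed 6 adjacent pairs: IFI44L with IFI44, CMPK2 with RSAD2, MX2 with MX1, HERC6 with HERC5, DDX60 with DDX60L, and XAF1 with FBXO39. In every pair but the last, both genes were in the interferon lists. The share of adjacent pairs among all tested genes was not computed, so the count has no background beside it.

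All 10 of the 2-fold higher symbols and 8 of the 38 lower ones shared a locus or a near-identical copy with another symbol in the deposited counts, such as a readthrough transcript and the genes it spans. By the same listing, 12858 of all 13109 tested genes shared none. Counts of such symbols can be split differently by a counter, so the 16 loci or copy sets were summed. After summing, none of the 16 was 2-fold apart, with differences from -0.29 to 0.35. SCHIP1 had 146 and 32 counts in siOCLN+LPS and the wtOCLN-labelled library while the readthrough IQCJ-SCHIP1 had 463 and 719, for sums of 609 and 751. TMEM256-PLSCR3 had 107 and 0 counts in a locus of 1012 and 940. TICAM2, an adaptor of the LPS receptor TLR4, had 29 and 0 counts and TMED7-TICAM2 67 and 161, in a locus of 3416 and 3601. H3F3A, a gene for histone H3.3, had 42 and 123 counts, beside 7766 and 7273 for its copy H3F3AP4. The called symbol held few of the counts in loci such as those of TICAM2 and H3F3A. It could not bring the sum to 2-fold there, so the sum does not show whether that symbol differed. With all symbols of shared loci or copies set aside, 30 genes were lower and none higher. The loci were listed after the values had been seen.

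**Figure D3:**
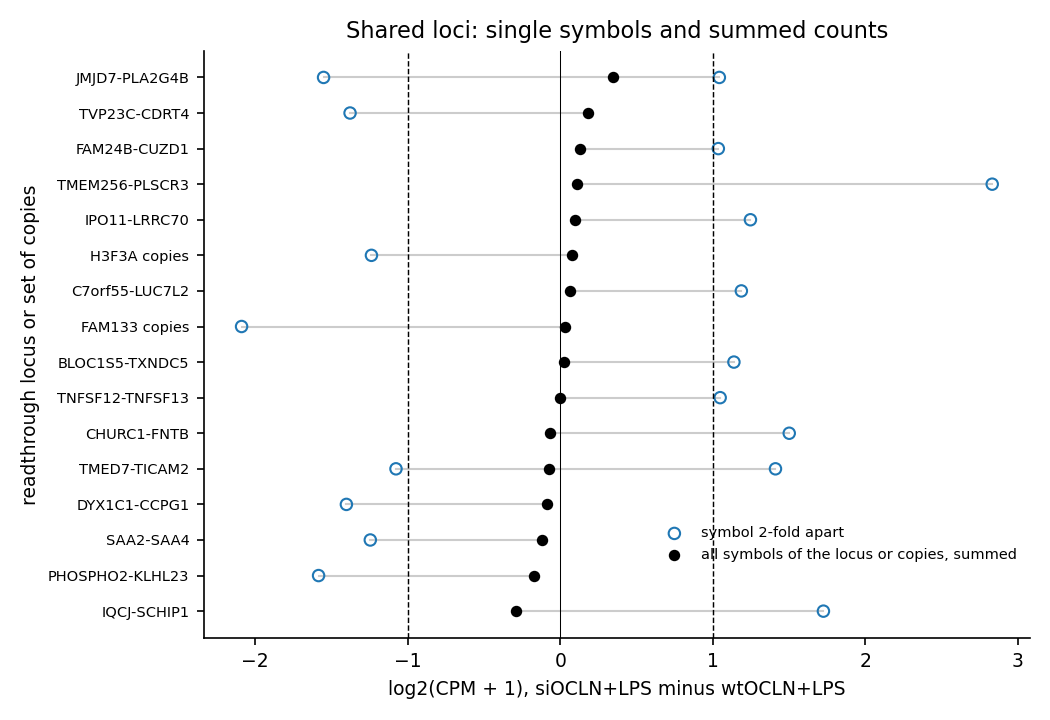
Difference between the libraries (horizontal axis, log2(CPM + 1), siOCLN+LPS minus the library labelled wtOCLN+LPS) for symbols of 16 readthrough loci or copy sets that were 2-fold apart (blue rings) and for the counts summed over each locus (black points). Rings lie beyond the dashed 2-fold lines on either side and the sums lie between -0.29 and 0.35.

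Between 1.5-fold and 2-fold, 89 genes were higher in siOCLN+LPS, and examples from the top of the ranking and from the protease and BCL2 lists follow. ZCWPW1, a reader of histone methylation in meiosis, was at 5.89 CPM in siOCLN+LPS and 2.51 in the wtOCLN-labelled library, 2.34 times higher (1.63 to 3.42) but 0.97 on the log2(CPM + 1) scale. BMF, a pro-apoptotic BH3-only protein gene, was at 6.55 CPM in control, 3.46 with LPS alone, 20.7 in siOCLN+LPS and 12.1 in the wtOCLN-labelled library, 1.71 times higher (1.44 to 2.04). MMP2, a gelatinase gene, was at 4.75 and 2.29 CPM, 2.08 times higher (1.41 to 3.11). ZCWPW1 (103 and 44 counts) and MMP2 (83 and 40 counts) rest on fewer counts than BMF (361 and 211), and none of the 3 passed 2-fold on the scale used.

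Most tight-junction genes were close in both libraries. Of 41 listed, 28 were tested, OCLN among them. Their median was 0.04, with 17 above 0 and 11 below, and none passed 2-fold on the log2(CPM + 1) scale. TJP1, the scaffold ZO-1, was at 251 CPM in control, 225 with LPS alone, 186 in siOCLN+LPS and 209 in the wtOCLN-labelled library. F11R, the adhesion molecule JAM-A, was at 48.2 and 45.9 CPM in the transfected pair, and CLDN1, a sealing claudin, at 313 and 339. MARVELD2, the occludin relative tricellulin, was at 2.40 and 3.43 CPM, with a counting interval for the ratio that included 1 (1.43, 0.946 to 2.17). CLDN23, a further claudin, had 11 and 35 counts, a ratio of 3.18 (1.58 to 6.94) but -0.88 on the log2(CPM + 1) scale, the lowest of the list. CLDN12 was at 13.0 and 17.3 CPM, a ratio of 1.33 (1.11 to 1.58). OCLN itself, at -0.48, was the next lowest, and its difference lay inside 2-fold. CDH1, the adherens junction cadherin, was at 105 and 104 CPM, and the 21 tested desmosome and adherens junction genes had a median of -0.02.

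Epithelial identity genes were also near equal. The 20 tested keratins and epithelial regulators had a median of -0.08. TP63, the master factor of basal airway cells, was at 12.2 CPM in siOCLN+LPS and 21.1 in the wtOCLN-labelled library, a ratio of 1.73 (1.46 to 2.05). KRT17, a keratin of activated basal cells, was lower in siOCLN+LPS (687 and 881 CPM) while KRT19, a keratin of simple epithelium, was higher (24.8 and 18.3 CPM). The 21 tested mesenchymal transition genes had a median of -0.01.

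LPS acts on TLR4 through MYD88 and NF-kB to switch on chemokine and cytokine genes, and these were largely alike in the transfected libraries. The genes to examine were taken from the LPS and control libraries, which are not part of the pair. Of 13551 genes tested there, 217 were at least 2-fold higher in LPS, and 203 of these were tested between the transfected libraries. Their median difference was 0.05, the quartiles were -0.06 and 0.14, 130 lay above 0 and 73 below. Of all tested genes, 54.5% lay above 0. None of the 203 was 2-fold lower, beside 0.29% of all tested genes. The 2 that were 2-fold higher, SCHIP1 and TMEM256-PLSCR3, share loci as described above. The 65 genes at least 4-fold higher in LPS gave a median of 0.03 over 64 tested, with none 2-fold apart in either direction.

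CXCL8, the main neutrophil chemokine of airway epithelium, was at 24.5 CPM in control, 1657 with LPS alone, 2000 in siOCLN+LPS and 2075 in the wtOCLN-labelled library. CCL2, which attracts monocytes, was at 2.33, 176, 958 and 934 CPM, and CCL20, which attracts dendritic cells, at 7.80, 406, 590 and 606. For these chemokines the difference between the transfected libraries was small beside that between control and LPS. IL6, a cytokine of the acute phase, was at 4.85, 136, 269 and 335 CPM, a ratio of 1.24 (1.20 to 1.29). NFKBIA, the NF-kB inhibitor that NF-kB induces, was at 912 and 918 CPM in the transfected pair, and ICAM1, a leukocyte adhesion molecule, at 1528 and 1445. The 35 tested NF-kB genes had a median of 0.04, the 13 cytokines and growth factors 0.01 and the 11 chemokines -0.05, with none at 2-fold. TLR4 was at 30.7 and 35.4 CPM and MYD88 at 41.5 and 59.1.

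Past 1.5-fold, siOCLN+LPS was the higher library for 9 of the 203 LPS-raised genes and the lower for 2. Of all tested genes, 0.755% were higher and 1.19% lower past 1.5-fold. The 9 were SCHIP1 and TMEM256-PLSCR3, the readthrough symbols ARMCX5-GPRASP2 and RAD51L3-RFFL, and MMP3, ADORA2A, FAM95C, HPN and KYNU. MMP3, stromelysin, was at 0.315 CPM in control, 19.8 with LPS alone, 4.92 in siOCLN+LPS and 2.00 in the wtOCLN-labelled library, 2.46 times higher in the siRNA library (1.64 to 3.76). ADORA2A, an adenosine receptor, had 26 and 6 counts in siOCLN+LPS and the wtOCLN-labelled library, HPN, a membrane serine protease, 18 and 6, and KYNU, a kynurenine pathway enzyme, 75 and 44. MMP3, ADORA2A, FAM95C, HPN and KYNU were each under 5 CPM in both transfected libraries. The 2 lower genes were TGFB2 and SERPINB2. TGFB2, a growth factor, was at 28.2, 59.0, 56.2 and 90.7 CPM, 1.61 times higher in the wtOCLN-labelled library (1.49 to 1.75). SERPINB2, a plasminogen activator inhibitor, was at 0.629 CPM in siOCLN+LPS and 1.54 in the wtOCLN-labelled library. PTX3, a soluble pattern-recognition protein, lay within 1.5-fold, at 7.36, 525, 136 and 113 CPM. MMP3 and PTX3 were thus lower in both transfected libraries than in LPS, where CXCL8, CCL2 and IL6 were higher.

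**Figure D4:**
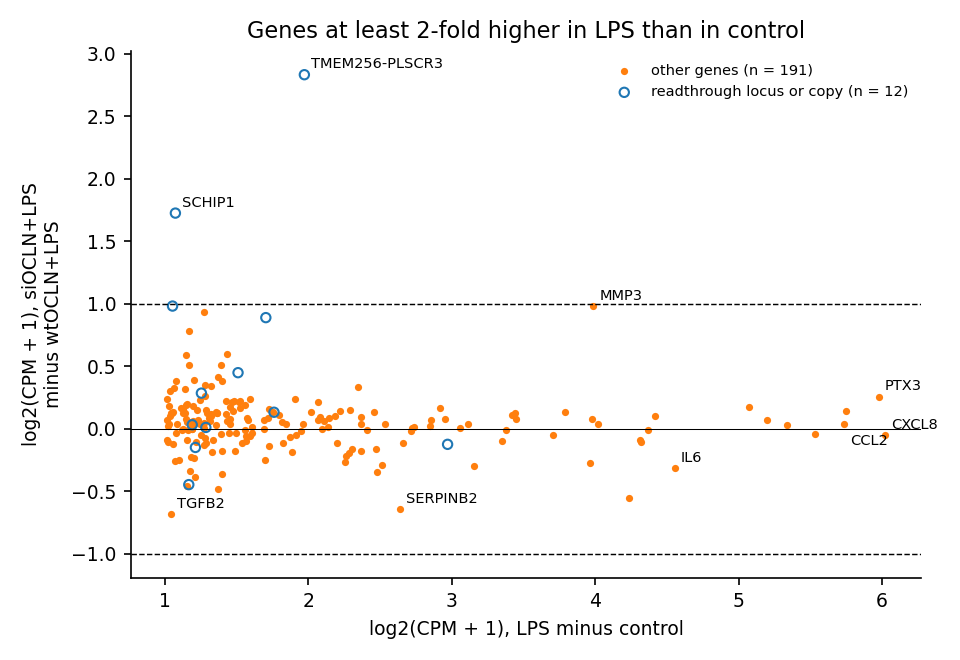
Difference between the transfected libraries (vertical axis, log2(CPM + 1), siOCLN+LPS minus the library labelled wtOCLN+LPS) against the difference between LPS and control (horizontal axis, log2(CPM + 1)) for the 203 tested genes at least 2-fold higher in LPS. Most points lie near 0 along the whole axis, with a median of 0.05, and the 2 points above the upper dashed 2-fold line share a readthrough locus (blue rings).

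In the remaining lists no gene passed 2-fold on the log2(CPM + 1) scale except TICAM2. Immediate early and AP-1 genes had a median of -0.15, with 22 of 30 below 0, against 45.5% of all tested genes. KLF2, a zinc-finger factor that restrains inflammation, was the lowest of them, at 19.1 CPM in control, 10.8 with LPS alone, 7.50 in siOCLN+LPS and 14.9 in the wtOCLN-labelled library, a ratio of 1.99 (1.61 to 2.47). The direction was not shared by EGR1, at 438 CPM in siOCLN+LPS and 345 in the wtOCLN-labelled library. Complement genes had a median of -0.14 over 12, with C1S, a protease of the classical pathway, at 48.2, 48.8, 10.6 and 20.7 CPM. The list for the Hippo pathway and for YAP and TAZ, co-activators that respond to cell contact, had a median of -0.07 over 27. Its member ANKRD1 was at 44.3 and 70.7 CPM in the transfected pair. The 12 tested genes of the siRNA machinery had a median of 0.07, and 15 reference genes 0.01.

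Ribosomal protein genes differed by a small amount in the other direction, with a median of 0.12 and 72 of 75 above 0, against 54.5% of all tested genes. Nuclear-encoded respiratory chain subunits had a median of 0.10 and 53 of 60 above 0. These genes are short, and the median over the shortest of 5 bins of transcript length was 0.04 against 0.00 in the longest. After the trend with length and GC content was removed, the medians were 0.10 for ribosomal and 0.09 for respiratory genes, and -0.55 for the interferon lists. None of the ribosomal or respiratory genes passed 2-fold.

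**Figure D5:**
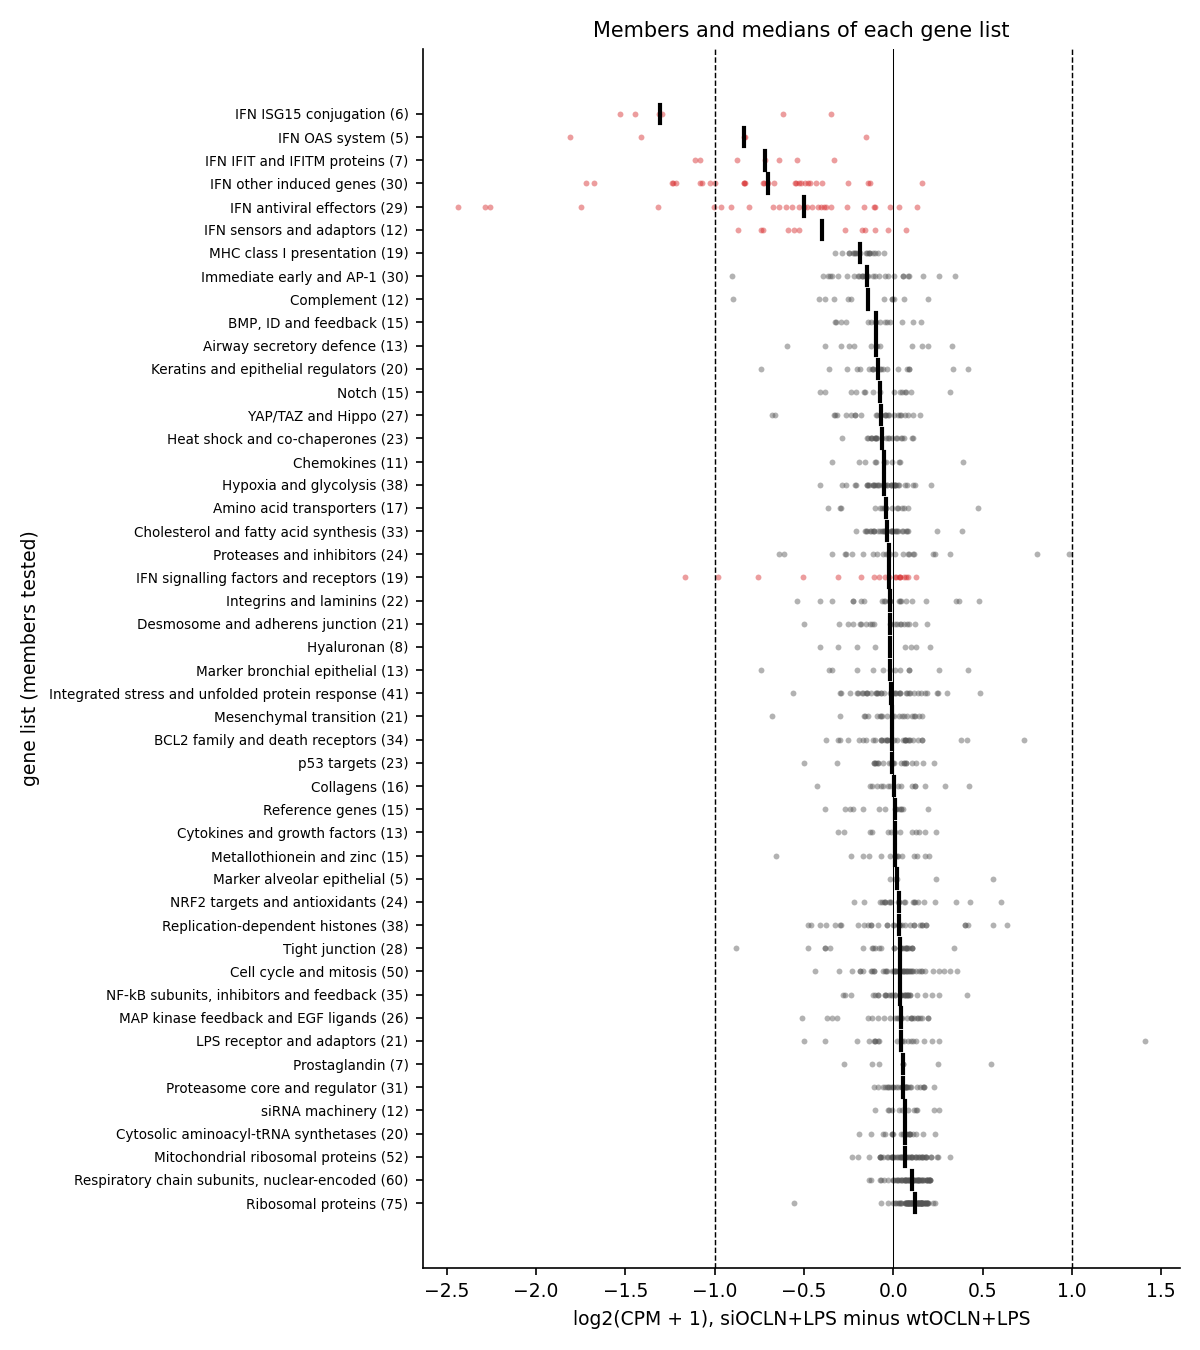
Difference between the libraries (horizontal axis, log2(CPM + 1), siOCLN+LPS minus the library labelled wtOCLN+LPS) for the tested members (points) and the median (black bar) of each gene list with at least 5 tested members, with interferon lists in red and dashed lines at 2-fold. The lowest 6 medians, from -1.30 to -0.40, are those of interferon groups, and the other medians drawn lie between -0.19 and 0.12.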

How the data were processed

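RNA from BEAS-2B cells was made into libraries with a directional NEBNext Ultra II kit, per the labels' protocols. The submitters' processing notes name TopHat, Cufflinks and hg19, with no versions, and leave counting program and strand setting not given in the sources used here. The authors deposited 1 table of raw read counts per gene symbol and library, and no counts were altered. From these counts, CPM by library total and the log2 ratio of CPM + 1 were computed with Python 3.11.15, NumPy 2.4.6, SciPy 1.17.1 and pandas 2.3.3, and TMM factors with edgeR 4.0.16 in R 4.3.3 for an alternative scaling. The pseudocount of 1 CPM understates the ratio of low genes. Library totals of 13867494 to 17500031 set the precision of each ratio.

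Each condition is 1 library, so no p-value was computed, and a gene was called at a 2-fold difference, with 1.5-fold as a further description. Ratios carry exact 95% Clopper-Pearson intervals and levels exact Poisson intervals. In simulated counts for 13074 genes, the step called 50 of 50 genes made 3-fold higher, 50 of 50 made 3-fold lower and 0 of 12874 left equal. The simulation held Poisson counting error only, with no variation between cultures, and changed genes only at 5 CPM or more. It checks the arithmetic of the step and cannot say how many calls in these libraries would recur in other cultures. The 53 gene lists held 1316 entries, all found, 30 under older symbols. Genes were named by rule: OCLN, the 10 highest and 10 lowest genes at 5 CPM or more without small RNAs or readthrough symbols, interferon-list members, and up to 4 genes furthest apart in each other list. Further genes, such as TJP1, CXCL8, CDH1 and HSH2D, were added after their values had been seen. The members and lists were chosen with earlier results of these data known. Transcript lengths and GC content came from GENCODE 29, with 12423 of 13109 tested genes matched. Promoter sequences are RefSeq's for GRCh38.p14, matched by symbol for 10534 of the 13109. The deposited counts are on hg19, and no coordinate was carried between the builds. Alternatives were other pseudocounts, filters, thresholds and scalings, and leaving out readthrough symbols.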

Additional observations from a re-analysis of the deposited data

How the results depend on the processing

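With 1 library per condition, culture-to-culture variation was not measured, and no call has a replicate behind it. The number of genes 2-fold higher in siOCLN+LPS was 10. It was 79 with a pseudocount of 0.1 CPM, 1 with 5 CPM, 4 with a filter at 5 CPM, 99 at 1.5-fold, 2 at 3-fold, 4 without small RNA and readthrough symbols, and 0 without all symbols of shared loci, an alternative chosen after seeing the data. The number 2-fold lower was 38. It was 82 with a pseudocount of 0.1 CPM, 21 with 5 CPM, 156 at 1.5-fold and 8 at 3-fold, and between 29 and 39 under every other setting run. The interferon-list genes among them numbered 23, then 50 at 1.5-fold and 7 at 3-fold, and 21 to 24 under the others. The same 23 genes were among the 24 called with median-ratio and TMM scaling. The higher share of calls was 20.8%, and became 49.1% with a pseudocount of 0.1 CPM, 4.55% with 5 CPM, 12.1% with a filter at 5 CPM, 38.8% at 1.5-fold and 10.8% without small RNA and readthrough symbols. The OCLN ratio of 0.708 ranged from 0.698 to 0.711 over 3 other scalings, which shifted the median of all genes by -0.02 to 0.01. The median over the interferon lists ranged from -0.57 to -0.48. None of the 26 named genes that were 2-fold apart changed sign, but 2 of 284 named genes did, IFNAR2 and JAK1, both near 0, as did 12 of 50 list medians, which lay between -0.07 and 0.03 at the settings of the report. The 12 include the interferon signalling, desmosome, mesenchymal transition, cytokine and reference gene lists, and the replication-dependent histones, whose median went from 0.03 to -0.30 with a filter at 5 CPM, which leaves 5 of them. No paired analysis was possible because each group is 1 library and the labels give no replicate numbers. Depth limits genes under about 5 CPM, where 15 of the 48 called symbols lie.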

Other observations

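Several groups that bear on cell state rather than on interferon or LPS were near equal in the transfected libraries. The 41 tested genes of the integrated stress and unfolded protein responses had a median difference of -0.01 on the log2(CPM + 1) scale, siOCLN+LPS minus the library labelled wtOCLN. DDIT3, the pro-apoptotic factor CHOP, was at 11.1 CPM in control, 10.8 with LPS alone, 3.43 in siOCLN+LPS and 5.54 in the wtOCLN-labelled library, a ratio of 1.61 (95% counting interval 1.16 to 2.27). PHGDH, the first enzyme of serine synthesis, was at 280, 264, 84.6 and 68.4 CPM. For both genes the transfected libraries were far below the other 2, and the distance between the transfected libraries was smaller. The same held for SLC30A1, a zinc exporter, at 98.0, 58.9, 14.7 and 23.7 CPM. SLC7A11, the cystine transporter, was at 168, 154, 26.1 and 24.6 CPM, with a counting interval for the ratio that included 1.

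Cell-cycle genes had a median of 0.04, with 35 of 50 above 0, against 54.5% of all tested genes. CCND1, cyclin D1, was at 196 CPM in control, 216 with LPS alone, 91.4 in siOCLN+LPS and 124 in the wtOCLN-labelled library, a ratio of 1.36 (1.27 to 1.45). CDC20, an activator of the anaphase-promoting complex, was 1.25 times higher in siOCLN+LPS (133 and 106 CPM). Of the airway secretory defence genes, SLPI, a protease inhibitor of airway mucus, was at 17.7, 26.1, 16.4 and 25.3 CPM, a ratio of 1.54 (1.33 to 1.79), and MUC5AC, a gel-forming mucin, was at 10.4 and 8.06 CPM in the transfected pair. The matrix genes COL8A1 and COL16A1 differed in opposite directions, at 45.3 and 61.1 CPM and at 9.78 and 7.03 CPM. None of these genes passed 2-fold.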
